A study of Homo sapiens with 27 samples.

Results

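The 8 genes described here restrain growth or the cell cycle: NF1, NF2, TSC1, TSC2, SMAD4, RB1, CDKN1A and CDKN2A. They were taken by name, with no threshold on a measured value but with earlier results of these data known, from the 19940 protein-coding genes whose window and flanks lie on a chromosome. Each gene was taken with its RefSeq bounds on GRCh38.p14 plus 5 kb on each side (the window), and set against the adjacent stretch of the same length on the left (lower coordinates) and on the right (higher coordinates). An insertion site is 1 genome position at which a library lists a peak on either strand, and the height of a peak is the signal the authors gave it.

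HCT116 is a colorectal carcinoma line. Its cells were transfected with self-reporting transposons, DNA elements that carry a promoter reading outward into the genome, so that RNA from an inserted copy names the place where it landed. All cells were grown for 2 weeks in 3 µg/ml puromycin before RNA was taken, and no sample from before that growth was analysed here. The study holds 27 libraries in 9 groups of 3, each group a transposon paired with a transposase, the enzyme that cuts the element out and inserts it at the bases TTAA. A transposon labelled wild type was paired with piggyBat, a relative of piggyBac from bats (WT_PBat). The labels do not say whether it is the same element as the wild-type transposon used with piggyBac. The latter was paired with 1 of 4 forms of piggyBac itself. These were the wild type (WT_PB), a hyperactive form (WT_hyPB), a re-engineered form (WT_rePB) and a form that is both (WT_rehyPB). The short transposon was paired with wild-type piggyBac (short_PB) or the hyperactive form (short_hyPB), and the symmetric transposon with the re-engineered forms (sym_rePB and sym_rehyPB). The labels give no genotype, do not say that replicates came from separate cultures and do not say how many cells were pooled, so p-values measure the spread between these libraries, which may be technical.

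The 12 libraries of WT_PB, WT_hyPB, WT_rePB and WT_rehyPB, called deep below, listed 336333 to 570362 distinct sites each, and the other 15, called shallow, listed 2814 to 9212. The lowest listed height was 5 in every library, so places with less signal do not appear. Libraries of 1 group usually shared few of their sites in the 8 windows, but WT_hyPB replicates 1 and 2 stood apart: 72.2% of the positions of replicate 1 and 78.7% of those of replicate 2 were in the other, against 21.6% and 23.0% shared with replicate 3. In WT_PBat, 3 of the 4 positions of replicate 1 were also in replicate 3. The limma tests that use WT_hyPB were therefore also run with its replicates 1 and 2 averaged into 1 sample, and the counts of recurring positions also with both counted as 1 library. The descriptions of strand, place along the gene, tallest peaks and most like gene count all 12 deep libraries.

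Tumour suppressors of this kind act at successive points of the growth machinery. Neurofibromin (NF1) switches off RAS, merlin (NF2) feeds the Hippo pathway that limits tissue growth, and hamartin (TSC1) and tuberin (TSC2) form a complex that holds back mTOR, the driver of protein synthesis. SMAD4 carries the growth-arresting TGF-beta signal to the nucleus, RB1 keeps the S-phase genes shut, and CDKN1A (p21) and CDKN2A (p16 and ARF) inhibit the kinases that release RB1 or protect p53. Loss of such a gene can let a cell outgrow its neighbours, and the question here was whether insertions in them were in excess, or their peaks tall, after the growth period.

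Since the transposase needs TTAA, the sequence at the gene starts shows where an insertion there could have landed. Over the 27 libraries, 95.2% to 100% of the sites that fell within 34789 RefSeq promoter windows (250 bases before to 50 after a start, GRCh38.p14) were at a TTAA, and 46.1% of those windows held at least 1 TTAA on either strand, since TTAA reads the same on both. The members had 11 such windows, and 4 of them held 1 TTAA each. These 4 targets are shown 5′ to 3′ on the strand of the gene with 10 bases on each side and the TTAA in capitals, from RefSeq. They lie at chr17:31094833-31094856 (plus strand, NF1), chr9:21975036-21975059 (minus strand, the p16 start of CDKN2A), chr9:21995286-21995309 (minus strand, the upstream start of CDKN2A) and chr16:2048196-2048219 (plus strand, TSC2).
NF1 target, 134 bases upstream of the start: cgctttttcaTTAAtgaaaccggc
CDKN2A p16 target, 192 bases upstream of that start: gtgctcggagTTAAtagcacctcc
CDKN2A upstream-start target: gtcgtgaaggTTAAaaccgaaaat
TSC2 target: tcccttagttTTAAgtcatggcgg

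The NF1 target was listed in 1 library (WT_PB replicate 2, height 7) and the p16 target in 1 library (WT_PB replicate 3, height 10). The other 2 targets were listed in none of the 27 libraries. The windows of TSC1, SMAD4, NF2, CDKN1A, RB1 and the upstream start of TSC2 held no TTAA and no listed site. For CDKN1A, TSC1 and RB1 the start in the promoter table lies 2251, 762 and 172699 bases inside the gene start used elsewhere here, so those windows are not at that start. The 250 bases upstream of the NF1 start (chr17:31094727-31094976, plus strand) and of the upstream NF2 start in the table (chr22:29603306-29603555, plus strand) show the contrast, with TTAA in capitals where there is one and a GC content of 67.2% and 62.4%.
NF1 upstream: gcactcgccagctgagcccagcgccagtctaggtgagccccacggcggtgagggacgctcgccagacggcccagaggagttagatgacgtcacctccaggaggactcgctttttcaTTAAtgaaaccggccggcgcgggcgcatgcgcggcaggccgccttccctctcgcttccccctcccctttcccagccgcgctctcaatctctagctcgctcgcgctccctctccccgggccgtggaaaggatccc
NF2 upstream: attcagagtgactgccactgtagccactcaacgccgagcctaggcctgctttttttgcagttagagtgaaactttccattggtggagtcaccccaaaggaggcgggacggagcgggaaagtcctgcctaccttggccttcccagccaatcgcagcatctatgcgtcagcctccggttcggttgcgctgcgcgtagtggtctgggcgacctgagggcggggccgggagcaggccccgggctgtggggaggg

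In the 12 deep libraries, 3 of the 8 genes held more sites than their flanks under each setting tried: NF2, SMAD4 and CDKN2A. TSC2 held fewer under each setting that could be fitted. For NF1, TSC1, RB1 and CDKN1A the sign or the call depended on which flank, height or gene bounds were used. By the log2 ratio of window to mean flank, averaged over the 4 deep groups, 6 members were called higher and 2 lower (limma, adjusted p under 0.05 over 14010 genes). The same test called 36.5% of all genes higher and 34.2% lower, so that 70.7% of genes differed from their flanks in one direction or the other. The median ratio was 0.64 over the 8 members and 0.03 over all genes tested. A call in this comparison is thus common, and the size of a ratio is read below against all genes.

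**Figure D1:**
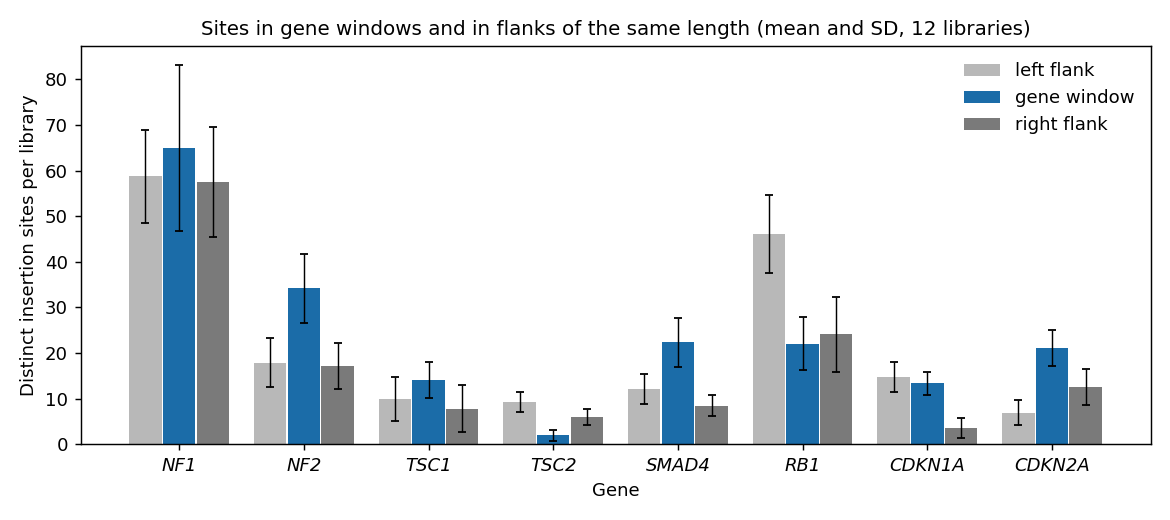
Distinct insertion sites per deep library (y axis) in the window of each of the 8 genes and in its left and right flanks of the same length; bars are means and error lines the SD over 12 libraries. The windows of NF2, SMAD4 and CDKN2A stand above both flanks, that of TSC2 below both, while RB1 and CDKN1A have flanks that differ from each other.

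NF1 (gene ID 4763, chromosome 17, 31094977 to 31377675, plus strand) is the longest member at 283 kb and received the most insertions. Its window held 62, 41 and 59 sites in WT_PB, 61, 54 and 51 in WT_hyPB, 92, 93 and 95 in WT_rePB and 59, 50 and 63 in WT_rehyPB. The left flank held 40 to 72 and the right flank 35 to 72. Window and flanks overlapped, and the log2 ratio was 0.13 ± 0.05 (SE, 12 libraries; limma adjusted p = 0.0255), a fold of 1.10 that 44.3% of genes reached or exceeded. By group, only in WT_rePB did the ratio pass the test, at 0.41 ± 0.10 (limma adjusted p = 0.00380), and not without any 1 of its 3 libraries (0.38 to 0.44, lowest limma adjusted p = 0.0584); the difference of WT_rePB from WT_PB was 0.23 ± 0.15 and did not (limma adjusted p = 0.597). The small excess was lost within the bare gene bounds (0.02, limma adjusted p = 0.782) and with the linked WT_hyPB libraries averaged (0.12, limma adjusted p = 0.0636). It was also lost without WT_PB replicate 1 (0.12), WT_hyPB replicate 1 (0.11), WT_rePB replicate 3 (0.13) or WT_rehyPB replicate 3 (0.11). With only peaks of height 10 and above it turned to a deficit of -0.34 (limma adjusted p = 0.000313).

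NF2 (gene ID 4771, chromosome 22, 29603556 to 29698600, plus strand) was denser than both flanks in 12 of 12 deep libraries. Its window held 21, 24 and 32 sites in WT_PB, 38, 35 and 43 in WT_hyPB, 37, 43 and 45 in WT_rePB and 29, 31 and 32 in WT_rehyPB, while the left flank held 9 to 29 and the right flank 8 to 24. The log2 ratio was 0.95 ± 0.09 (SE, 12 libraries; limma adjusted p = 9.06e-09), a fold of 1.93 that 11.6% of genes reached or exceeded. It passed the test in each of the 4 deep groups, with values between 0.92 and 0.97. Against the left flank alone it was 0.94 and against the right flank alone 1.00. Without replicate 3 the call of NF2 in WT_rehyPB was lost, as was that of every member there. In WT_PB and WT_rePB, no more than 2 members were called once any 1 library was left out. NF2, SMAD4 and TSC2 thus did not all keep their calls in those groups.

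TSC1 and TSC2, partners in 1 complex, differed in direction. TSC1 (gene ID 7248, chromosome 9, 132891349 to 132945378, minus strand) held 19, 13 and 13 sites in WT_PB, 11, 9 and 17 in WT_hyPB, 19, 19 and 17 in WT_rePB and 10, 10 and 12 in WT_rehyPB. Its left flank held 3 to 22 and its right flank 2 to 18, so window and flanks overlapped, and the log2 ratio was 0.73 ± 0.12 (SE, 12 libraries; limma adjusted p = 2.27e-05), which 17.8% of genes reached or exceeded. By group it did not pass in WT_hyPB (0.55 ± 0.25) or WT_rePB (0.26 ± 0.20). Within the bare gene bounds it was 0.31 and no longer passed (limma adjusted p = 0.0687). TSC2 (gene ID 7249, chromosome 16, 2047985 to 2089491, plus strand) held only 1 to 5 sites in any deep library, with a median of 1.5, against 6 to 12 in the left flank and 4 to 8 in the right. The window was below both flanks in 12 of 12 libraries and the log2 ratio was -1.87 ± 0.19 (SE; limma adjusted p = 1.86e-08), at or below which 2.51% of genes lay. It passed the test in each of the 4 deep groups, though in WT_rehyPB not without replicate 3. The limit given for NF2 in WT_PB and WT_rePB applies to TSC2 as well. TSC2 is the member whose value rests on the fewest sites, 23 in the 12 libraries together. The TSC2 window also covers parts of NTHL1 and PKD1. Other protein-coding genes overlap the windows of TSC1 (SPACA9 and GFI1B), NF1 (OMG, EVI2B and EVI2A) and RB1 (LPAR6) as well. Sites were not divided between overlapping genes.

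SMAD4 (gene ID 4089, chromosome 18, 51030213 to 51085042, plus strand) held 26, 23 and 26 sites in WT_PB, 18, 16 and 15 in WT_hyPB, 22, 34 and 27 in WT_rePB and 19, 22 and 20 in WT_rehyPB. The left flank held 7 to 16 and the right 5 to 13, and in every deep library the window stood above both. The log2 ratio was 1.08 ± 0.10 (SE, 12 libraries; limma adjusted p = 1.22e-09), a fold of 2.12 that 8.62% of genes reached or exceeded. It passed in each deep group, from 0.82 ± 0.22 in WT_rehyPB to 1.46 ± 0.21 in WT_PB. In WT_rehyPB the call was lost without replicate 3. The calls of SMAD4 in WT_PB and WT_rePB carry the same limit as those of NF2.

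RB1 (gene ID 5925, chromosome 13, 48303751 to 48481890, plus strand) held 21, 26 and 23 sites in WT_PB, 24, 28 and 18 in WT_hyPB, 18, 28 and 32 in WT_rePB and 13, 16 and 18 in WT_rehyPB. Its flanks were unequal: 32 to 62 sites on the left, which holds ITM2B, and 15 to 40 on the right. The log2 ratio to both was -0.67 ± 0.09 (SE, 12 libraries; limma adjusted p = 6.08e-07), at or below which 19.3% of genes lay. By group it did not pass in WT_PB (-0.34 ± 0.18). Against the left flank alone the ratio was -1.07 (limma adjusted p = 2.17e-10), and against the right flank alone it was -0.10 and did not pass (limma adjusted p = 0.432). Taken singly over the 12 libraries, only the left flank thus gave a deficit of RB1 that passed. The groups differed on the right. In WT_rePB the window was below both flanks in each library, with 78 sites in all against 161 on the left and 111 on the right. In WT_rehyPB it held 47 in all against 57 on the right, but in WT_PB 70 against 61 and in WT_hyPB 70 against 60.

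Of the kinase inhibitors, CDKN1A (gene ID 1026, chromosome 6, 36676463 to 36687332, plus strand) showed the same dependence on the flank. Its window of 20.9 kb held 10, 11 and 18 sites in WT_PB, 12, 12 and 14 in WT_hyPB, 10, 15 and 16 in WT_rePB and 14, 13 and 15 in WT_rehyPB. The left flank, which holds no other protein-coding gene, had 8 to 20 sites and the right flank 1 to 8. The log2 ratio to both was 0.55 ± 0.13 (SE, 12 libraries; limma adjusted p = 0.000477), a size that 24% of genes reached or exceeded, but -0.12 against the left flank alone (limma adjusted p = 0.431) and 1.95 against the right alone (limma adjusted p = 4.17e-10). By group the ratio to both did not pass in WT_hyPB (0.47 ± 0.18) or WT_rePB (0.17 ± 0.24). Per length, CDKN1A was the densest member, with a median of 64.7 sites per 100 kb per library, against 54.6 for CDKN2A and 2.91 for TSC2, the sparsest.

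CDKN2A (gene ID 1029, chromosome 9, 21967752 to 21995324, minus strand) had the highest ratio of the members. It held 16, 19 and 20 sites in WT_PB, 28, 23 and 27 in WT_hyPB, 24, 19 and 18 in WT_rePB and 21, 16 and 23 in WT_rehyPB. The left flank, with MTAP, held 2 to 12 and the right flank, with CDKN2B, 7 to 19, so the window was above the left flank in 12 and above the right in 10 of 12 libraries. The log2 ratio was 1.11 ± 0.11 (SE; limma adjusted p = 9.62e-09), a fold of 2.15 that 8.18% of genes reached or exceeded. It was highest in WT_hyPB, at 1.67 ± 0.17 with the linked replicates 1 and 2 counted separately. In WT_rePB, at 0.53 ± 0.21, it did not pass the test (limma adjusted p = 0.0559). Against the left or the right flank alone the ratio was 1.64 or 0.77, and both passed.

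**Figure D2:**
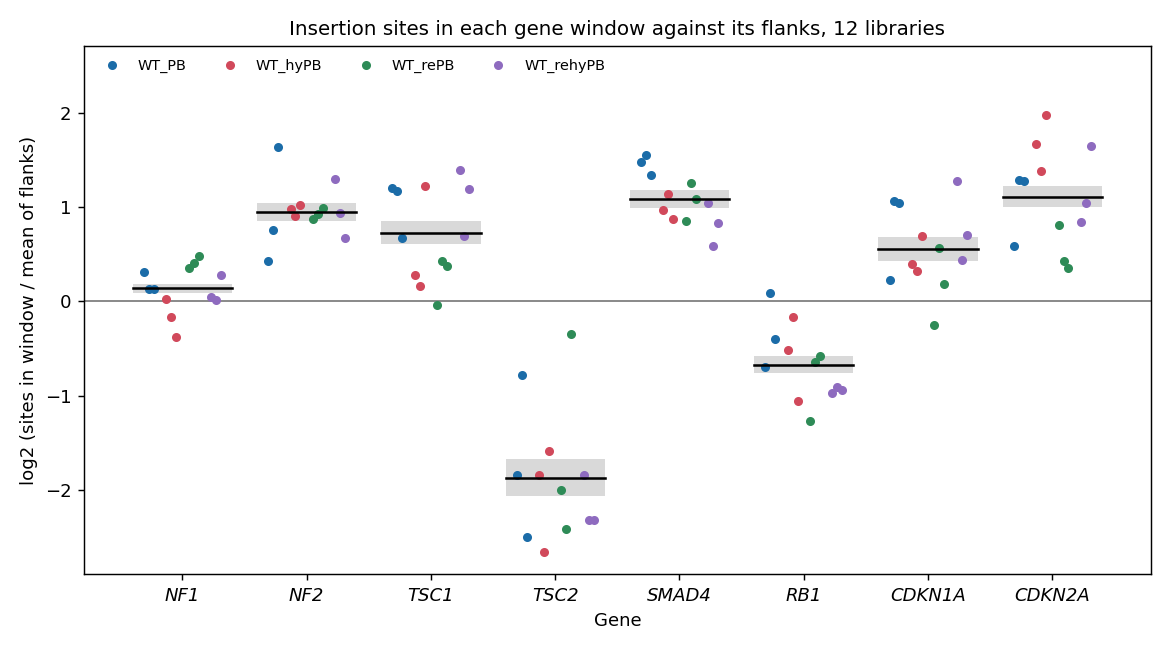
The log2 ratio of sites in the window to the mean of both flanks (y axis, 0.5 added to each count), for each gene and each of the 12 deep libraries, coloured by group; black lines are the mean of the 4 group means and grey bands its SE. All 12 points of NF2, SMAD4 and CDKN2A lie above 0 and all 12 of TSC2 below it. The points of WT_rePB in NF1 and of WT_PB in SMAD4 lie above those of all other groups. In the other genes no group lies wholly apart from the rest.

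With 3 libraries in each group, the members called against their flanks were 5 higher and 1 lower in WT_PB, where 23.3% of all genes tested were called higher and 19.7% lower. They were 3 and 2 in WT_hyPB (28.7% and 26.4% of all genes), 3 and 2 in WT_rePB (18.1% and 20.2%) and 5 and 2 in WT_rehyPB (18% and 17.9%). These counts fell when a library was left out: to 2 in WT_PB whichever was removed, to 2 or fewer in WT_rePB, and to between 0 (without replicate 3) and 4 in WT_rehyPB. In WT_hyPB they fell to 3 without replicate 1 or 2. The WT_hyPB calls given by group take its linked replicates 1 and 2 as separate libraries, so p-values in that group may be too small.

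With sites of every listed height counted, no difference between the deep groups passed the test for any member. The ratio to flanks was compared between WT_hyPB and WT_PB, WT_rePB and WT_PB, WT_rehyPB and WT_hyPB, and WT_rehyPB and WT_rePB, and 0 of 8 members passed in any (limma, adjusted p under 0.05 over 14010 genes), where 0.0714%, 0.178%, 0.0642% and 0.0214% of all genes did. Nor did any pass in the test of whether the change from the parental to the hyperactive enzyme differed with the re-engineered form (0.0357% of all genes called). At an unadjusted p under 0.05 the counts of members in these 5 tests were 1, 1, 0, 2 and 1 of 8, where 10.3%, 10.8%, 12.4%, 6.91% and 8.1% of all genes were. The smallest of these p-values were for TSC1 in the last test (1.29 ± 0.50, SE; limma adjusted p = 0.519) and for NF1, lower in WT_hyPB than in WT_PB (-0.36 ± 0.15; limma adjusted p = 0.382).

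Taken as a share of all sites in the library, the 8 windows together held 4.54 ± 0.37 sites per 10000 in WT_rehyPB (SD, n = 3), 4.39 ± 0.32 in WT_rePB, 4.40 ± 0.28 in WT_hyPB and 4.41 ± 0.31 in WT_PB. The groups overlapped. Of the 7 members with enough sites for a test, 0 passed in any of the same 4 comparisons (limma, 7575 genes), where 1.85%, 2.65%, 2.71% and 0.396% of all genes did. At an unadjusted p under 0.05 the counts of members were 2, 1, 1 and 2 of 7, where 14.3%, 16.6%, 17.6% and 12.6% of all genes were. SMAD4 came nearest, lower in WT_hyPB than in WT_PB by a log2 difference of -0.64 ± 0.19 (limma adjusted p = 0.0630), followed by NF2, higher by 0.49 ± 0.16 (limma adjusted p = 0.107).

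The density of sites near the annotated start varied between the members, most of them within the range of all genes given below. Within 5 kb of its annotated start TSC1 held 6.08 sites per 10 kb per library on the average, against 1.48 in the rest of its window, a density 4.11 times as high. RB1 had 3.58 against 1.04 (3.45 times), TSC2 1.17 against 0.181 (6.46 times, on 23 sites), and CDKN1A 8.50 against 4.45 (1.91 times). NF2 (1.89) and NF1 (1.69) were lower, SMAD4 (1.23) lower still, and in CDKN2A the start was no denser than the rest (0.929). Over 6750 genes with 100 sites or more the median was 1.88, with 0.641 and 4.26 at the 10th and 90th percentiles. TSC2 is thus the only member beyond that range, and its 23 sites are fewer than the 100 required of those genes. Of the 169 TSC1 sites, 73 lay within 5 kb of the start on either side, and the bare gene bounds leave out those before it.

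**Figure D3:**
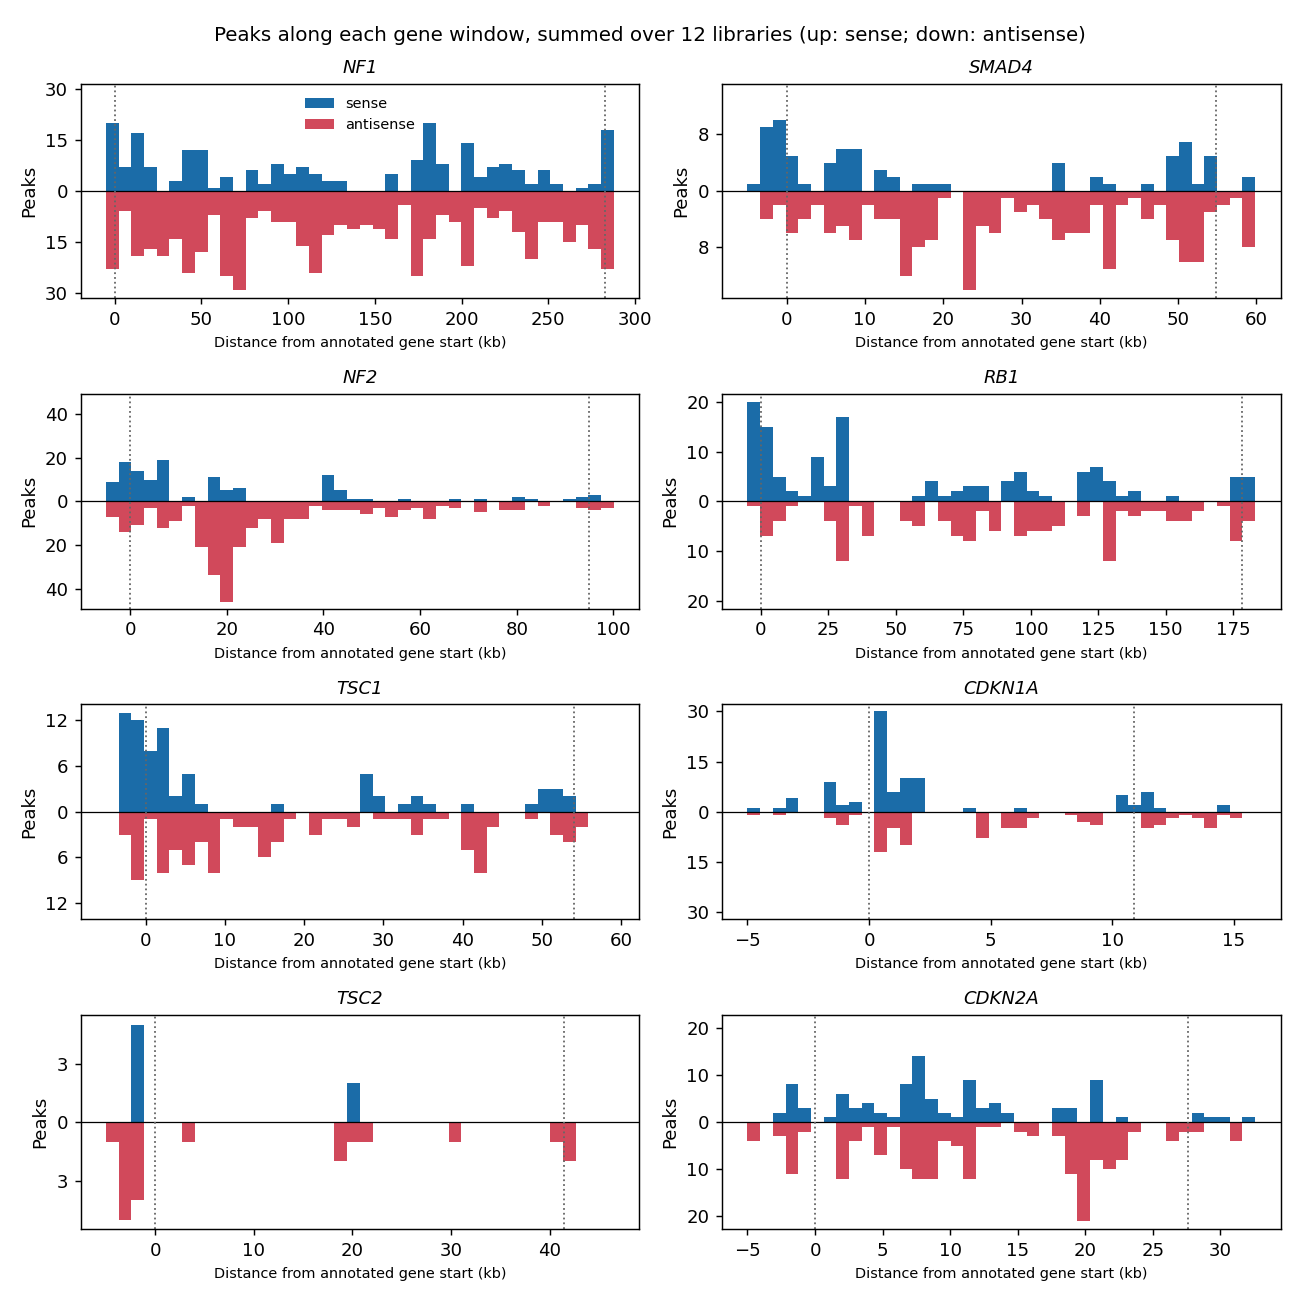
Peaks along each gene window, summed over the 12 deep libraries, against the distance from the annotated gene start in kb; bars above 0 are peaks on the strand of the gene (sense), bars below 0 peaks on the other strand, and dotted lines mark the gene start and end. TSC1, RB1 and CDKN1A are densest near the start, NF2 has a dense antisense stretch near 20 kb, and NF1 is filled along its length.

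Single positions were listed again and again in some members. Of 50 positions in the CDKN1A window, 9 (18.0%) were listed in 6 or more of the 12 deep libraries, against 3.98% over all protein-coding windows and 14.8% of the positions in its own flanks. NF2 followed with 20 of 162 (12.3%, flanks 6.86%), TSC2 with 1 of 12 (8.33%, flanks 21.4%) and CDKN2A with 9 of 110 (8.18%, flanks 1.46%). TSC1 had 2 of 97, RB1 3 of 179, and SMAD4 1 of 164. NF1 had 3 of 493 (0.609%), against 4.79% in its flanks. With the linked WT_hyPB libraries counted as 1 the shares were 18% in CDKN1A, 10.5% in NF2, 7.27% in CDKN2A and 3.25% over all windows, and SMAD4 had none.

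In CDKN1A the position 36678068, 1605 bases downstream of the annotated start, was listed in all 12 deep libraries, with heights up to 135 and on both strands in many. Position 36681202, 4739 bases downstream of the start, was listed in 12 libraries of 7 groups, among them short_PB, short_hyPB and sym_rehyPB, and always on the minus strand. Heights there were 9 and 37 in 2 of the WT_PB libraries, 57, 53 and 71 in WT_hyPB (the first 2 from the linked replicates), 51 in 1 library of WT_rePB, 26 and 46 in 2 of WT_rehyPB, and 5 to 11 in the shallow libraries. In NF2, position 29601781, 1775 bases upstream of the start, was listed on both strands in 11 deep libraries and 1 of short_hyPB. In CDKN2A, position 21974346 was listed in 13 libraries, 2 of them WT_PBat (replicates 1 and 3, which shared positions). In RB1, position 48302572, 1179 bases upstream, was listed in 8, always on the plus strand and with heights from 16 to 96. NF1 had its most listed position 2048 bases upstream of the start, at 31092929, in 11 libraries of 6 groups. At each position named here the linked WT_hyPB replicates 1 and 2 were both listed and are counted separately.

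Peaks in the members were not in general tall. Height was compared as the mean log2 height of the sites in the window minus that in the flanks, over genes with 3 or more sites on each side in every library. A site with peaks on both strands counted once, with the height of the taller. A tall peak may be 1 insertion in many cells or many insertions with much RNA, and these cannot be told apart. In the mean of the 4 deep groups 2 members were called lower and 1 higher of 7 tested (limma, 10081 genes), where 20.8% of all genes were called lower and 14.8% higher.

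NF1 had the lower peaks in every library. The median height of its window was 7 to 12 over the 12 libraries, and that of its flanks 10 to 17, and in 12 of 12 the window was lower by mean log2 height, by between -0.76 and -0.30. The difference was -0.53 ± 0.04 (SE, 12 libraries; limma adjusted p = 1.64e-12), and it passed in each deep group, at -0.47 in WT_rehyPB, -0.42 in WT_rePB, -0.63 in WT_hyPB and -0.61 in WT_PB. The call by group was lost with the median height in WT_PB (-0.57), WT_rePB (-0.41) and WT_rehyPB (-0.55), and in WT_rehyPB also without replicate 2 (-0.42) or 3 (-0.43). NF1 was the 1 member called in each group, where 1.59%, 3.38%, 9.66% and 3.65% of all genes, in the same order, were called lower. Only 1.67% of its sites were among the tallest 5% of their library, against 7.96% in the flanks. The left flank holds 5 other protein-coding genes, CRLF3, ATAD5, TEFM, ADAP2 and RNF135, and their part in the difference was not tested.

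RB1 was lower too, in 12 of 12 libraries and by -0.35 ± 0.07 (SE; limma adjusted p = 0.000144), with 0.755% of its sites among the tallest 5% against 7.13% in its flanks. Unlike NF1, it passed in no single deep group (lowest limma adjusted p = 0.116, in WT_hyPB). The left flank of RB1 holds ITM2B and more sites than the right, and its part in the difference was not tested. NF2 was higher by 0.17 ± 0.06 (limma adjusted p = 0.0303), in 10 of 12 libraries, and this call was lost with the median height (0.24, limma adjusted p = 0.0820) and with the linked WT_hyPB libraries averaged (0.17, limma adjusted p = 0.0583). It was also lost without WT_PB replicate 2 (0.11), WT_hyPB replicate 1 (0.16), WT_rePB replicate 1 (0.14) or WT_rehyPB replicate 1 (0.16). TSC1, SMAD4, CDKN1A and CDKN2A did not pass, with differences of -0.15 ± 0.11, -0.09 ± 0.07, -0.06 ± 0.10 and -0.08 ± 0.09, and TSC2 had too few sites for the test. CDKN1A had tall peaks in the window and in the flanks alike, with 13.1% and 14.7% of sites among the tallest 5%, and its tallest was 135. The tallest peak in any member was 152, in CDKN2A.

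**Figure D4:**
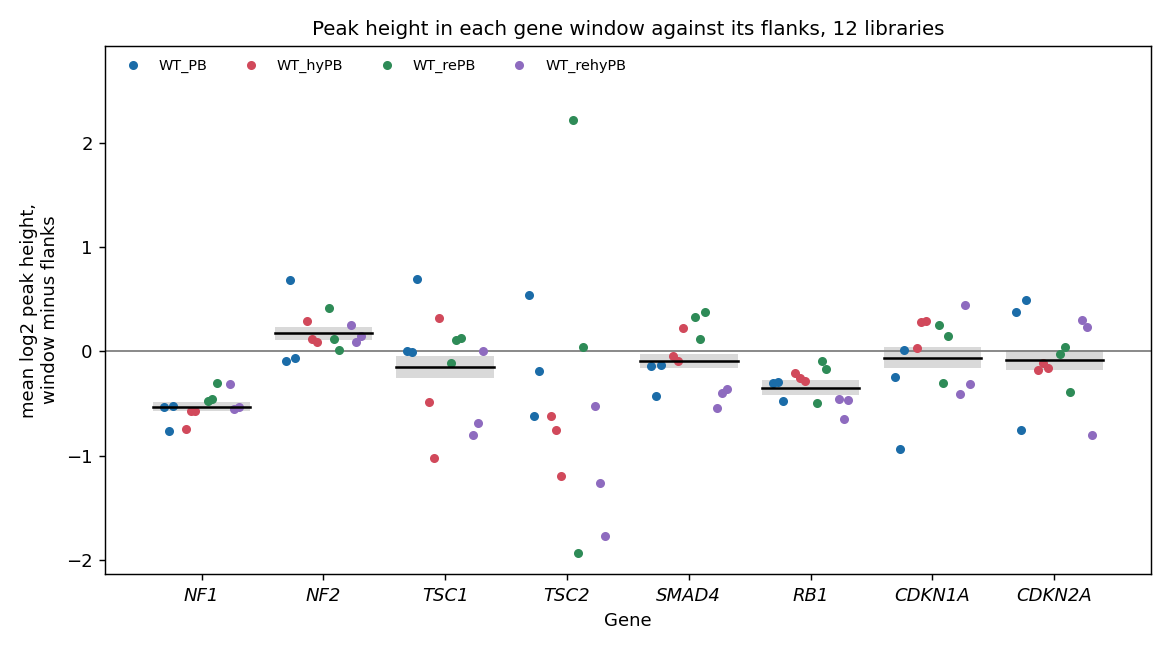
Mean log2 peak height in the window minus that in both flanks (y axis), for each gene and each of the 12 deep libraries, coloured by group; black lines are the mean of the 4 group means and grey bands its SE, with none for TSC2, which was not tested. All 12 points of NF1 and of RB1 lie below 0, and those of TSC2 scatter most.

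Peaks lay more often on the strand opposite to the gene, here as over all genes. What a peak's strand says of the transposon's direction is not stated in the sources used here. Over the 12 deep libraries 29.6% of NF1 peaks (of 791), 28.7% of NF2 (435), 29.0% of SMAD4 (269), 26.9% of TSC2 (26) and 35.2% of CDKN2A (281) were on the gene's strand. The values for TSC1, RB1 and CDKN1A were 42.3% (175), 47.4% (274) and 52.2% (180). Over 7301 genes with 100 peaks or more the median was 38%, with 25.2% and 50.9% at the 10th and 90th percentiles. CDKN1A alone lay beyond that range. In NF1, NF2, SMAD4 and CDKN2A the share was under 50% in each of the 12 libraries.

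NF1 and NF2 had enough peaks for a test against their flanks. The percent of sites on the plus strand, the strand of both genes, was lower in the window by -17.2 ± 2.04 percentage points in NF1 (SE; limma adjusted p = 2.75e-09) and by -33.1 ± 2.58 in NF2 (limma adjusted p = 1.88e-13). Of the 2247 genes tested, 43.1% were called lower and 38.7% higher, so a strand difference from the flanks was common. In NF2, the antisense peaks gathered about 20 kb into the gene, and position 29625788 there was listed in 11 libraries with the minus strand in each.

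**Figure D5:**
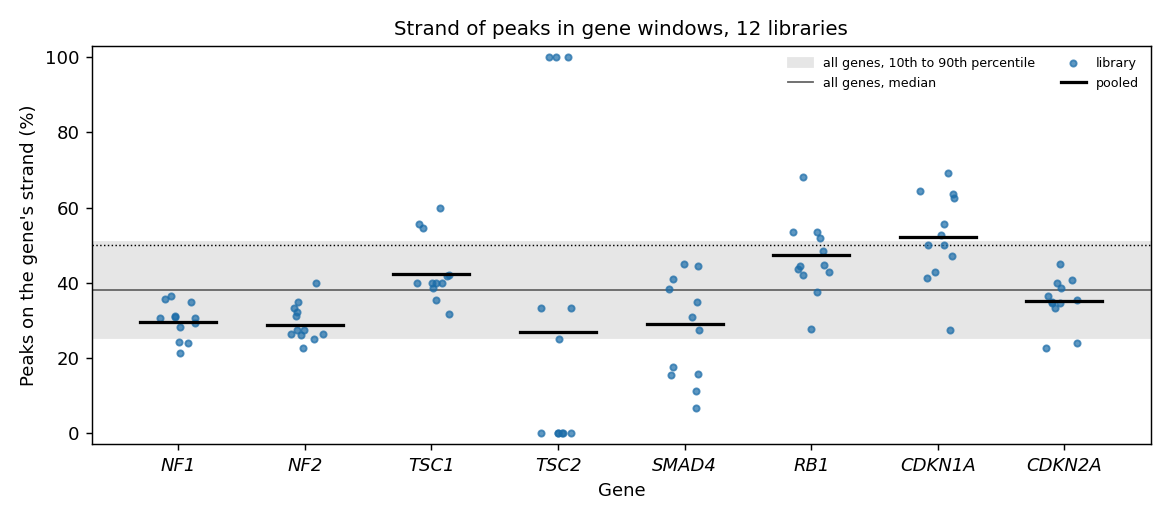
Percent of peaks on the strand of the gene (y axis) in each of the 12 deep libraries (points) and pooled over them (black lines); the grey band spans the 10th to 90th percentiles over 7301 genes, the grey line is their median and the dotted line 50%. Points of TSC2 rest on a few peaks each; NF1, NF2 and SMAD4 lie low in the band and CDKN1A just above it.

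In the 15 shallow libraries the 8 windows held 0 to 7 sites each. No member reached the mean of 10 sites in window plus flanks set for the test. With no filter on sites, 6 members could be tested in WT_PBat, 4 each in sym_rehyPB and sym_rePB, and 7 each in short_hyPB and short_PB, and 0 were called in any (limma, adjusted p under 0.05), where 0% of all genes were called in each of the 5 groups. At an unadjusted p under 0.05 the members were, in the same order, 1, 1, 1, 2 and 0, against 18.4%, 12.9%, 12.1%, 16.8% and 10.4% of all genes. CDKN1A had the most, 12 sites over the 15 libraries against 4 in the left and 0 in the right flank, with at least 1 site in 9 libraries. NF1 had 10 (left flank 12, right flank 18), NF2 9 (13 and 9), TSC1 7 (0 and 2), CDKN2A 4 (0 and 1) and TSC2 3 (26 and 1). SMAD4 and RB1 had none listed, and their flanks had 0 and 3. Of the 34 positions of members in these libraries, 26 (76.5%) were also listed in a deep library. The same share over all positions of the shallow libraries was not counted, so this value cannot be read as particular to the members.

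Other brakes of the same pathways were counted as a list of 25 genes, of which 22 had enough sites. The list was drawn up with earlier results of these data known and supports nothing on its own. In the mean of the 4 deep groups 15 were called higher than their flanks and 2 lower, where 36.5% and 34.2% of all genes were, with a median log2 ratio of 0.50 against 0.03 over all genes. Those with the largest ratios were the kinase inhibitors CDKN2C (1.78 ± 0.12, limma adjusted p = 2.52e-11) and CDKN1B (1.69 ± 0.11, limma adjusted p = 3.19e-12). The lowest were the RB1 relative RBL2 (-0.35 ± 0.12, limma adjusted p = 0.0142) and RASA2, which acts on RAS as NF1 does (-0.23 ± 0.07, limma adjusted p = 0.00488). In height 6 were called higher and 5 lower of 21 tested, where 14.8% and 20.8% of all genes were.

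By the share of sites over the 12 deep libraries, the gene most like NF1 among 1058 with at least 50 sites was LTBP1 on chromosome 2, with a Pearson r of 0.845 over 12 libraries that share the depth of each library. This r was picked as the highest of 1058, which alone can make it large, and the spread of r over the other genes was not taken. NF1 was the only member with enough sites for that comparison.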

How the data were processed

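Peak lists of 27 libraries were used as deposited. Reads had been trimmed with cutadapt 3.4 and aligned with HISAT2 2.2.1.0 to hg38 (GRCh38.p5 is also named), per the submitters' processing notes; the peak caller is not given in the sources used here. The deposited peak height is a signal (coverage) value that the authors listed from 5 upward; PCR copies are not independent molecules. Per the file headers and values, a width and a constant per file were not used as measurements. A site was the first base of TTAA, from the start on the plus strand and from the end less 3 on the minus strand. Sites were counted per window and flank, 0.5 was added, and log2 ratios were tested with limma 3.58.1 in R 4.3.3 (two-sided, empirical Bayes with a trend on site number, Benjamini-Hochberg over all genes with a mean of at least 10 sites). Height needed 3 sites and strand 20 sites on each side. The members and the list of other brakes were chosen with earlier results of these data known; the 8 members are always named, other brakes only for the 2 largest calls each way, and the most like gene for members with 50 sites. On simulated data the fit of 4 deep groups recovered 93% of 2-fold and 100% of 4-fold changes, and that of WT_PB alone 41% and 83%. Of the calls, 6.31% and 2.36% were false. The simulated counts were independent between libraries, and window and flanks were equal in most genes. These data have linked libraries, recurring positions and many genes that differ from their flanks, so those rates may not hold here. Alternatives were half-length flanks, 1 flank only, bare gene bounds, other added constants, heights of 10 and above, other scalings, no filter, a replicate block and leaving out libraries. The single-flank settings, and the averaging of the linked WT_hyPB libraries in the by-group, height, strand and ratio-difference fits and the recurrence counts, were added after the data were seen.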

Additional observations from a re-analysis of the deposited data

How the results depend on the processing

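The signs and calls of NF2, SMAD4, CDKN2A and TSC2 against their flanks, in the mean of the 4 deep groups, held under each alternative in which they could be fitted; TSC2 had too few sites with half-length flanks or the right flank alone. Against flanks, the members called in WT_rehyPB fell from 7 to 4 with the bare gene bounds, with peaks of height 10 and above, or with the left flank only. In height, the median took the count from 1 to 0 in WT_PB, WT_rePB and WT_rehyPB, and half-length flanks took WT_PB to 2. In the share of sites of WT_rehyPB against WT_hyPB, 1 member was called with heights of 10 and above. The cause was not tested. Values turned sign for RB1 in WT_hyPB against the right flank (0.21), for NF1 at heights of 10 and above (-0.015 in WT_rePB and -0.34 over the 4 deep groups), for CDKN1A against the left flank (-0.12) and for the height of SMAD4 with half-length flanks (0.015). Leaving out 1 library gave 2 members called in WT_PB, 3 to 4 in WT_hyPB, 1 to 2 in WT_rePB and 0 to 4 in WT_rehyPB against flanks, and 1 to 2 in WT_hyPB and 0 to 1 in WT_rehyPB for height. The height difference of CDKN1A then ranged from -0.13 to 0.0074 and that of CDKN2A from -0.14 to 0.016.

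Same-numbered libraries of different groups did not deviate together in their shares of sites (correlations from -0.02 to 0.02 over 18 pairs). Differently numbered pairs gave -0.02 to 0.03 over 36 pairs. A link that leaves these shares unchanged would not show here, so whether the numbers pair the libraries is not known. With the replicate number as a block, 8 members were called against flanks and 0 in any comparison between groups, as without it.

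Calls over all genes also moved. Leaving out 1 library took the counts against flanks from 5743 to between 1803 and 2490 in WT_PB, from 7685 to as few as 2702 in WT_hyPB, from 5761 to between 1299 and 1899 in WT_rePB and from 4798 to between 699 and 2554 in WT_rehyPB, where heights of 10 and above gave 3179. With the median height the counts fell from 856 to 40 in WT_PB, 2382 to 331 in WT_hyPB, 750 to 52 in WT_rePB, 328 to 17 in WT_rehyPB and 3589 to 1792 over the 4 groups, where a minimum of 10 sites gave 2172 and took the strand count from 1838 to 3675. Half-length flanks gave 528 in WT_PB and 191 in WT_rehyPB. Averaging the linked libraries gave 1296 in WT_hyPB for height. In the share of sites, the counts in the 4 comparisons, in the order of the report, were 140, 201, 205 and 30. Averaging gave 51 in the first and 52 in the third, no filter on sites gave 67, 122, 98 and 2, and the constant of each file as the scale gave 84, 119 and, in the last, 87. Heights of 10 and above gave 102 in the second and 5 in the last, and centring on the median gene gave 18 in the last. In the ratio differences, averaging took 10 to 2 and 9 to 0.

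The number of TTAA in windows and flanks was not counted, so density per target was not measured. Places under height 5 are not listed, and 3 libraries a group limit the precision.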
